A study of Felis catus with 2 samples.

Results

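Integrin, laminin and nidogen genes were examined in polyadenylated RNA from the iridocorneal angle of 2 cats, 1 with primary congenital glaucoma (PCG) and 1 normal. The members were the rows of the deposited table with a single gene name beginning with ITGA, ITGB and a digit, LAMA, LAMB or LAMC and a digit, or equal to NID1 or NID2. This rule uses names only and found 46 rows, which gave 40 genes of the 19181 single gene names in a table of 32065 loci. Of a name listed on several rows, the row with the higher mean was used. The 40 genes comprised 17 integrin alpha chains, 7 integrin beta chains, 12 laminin chains, 2 nidogens and 2 genes, ITGB1BP1 and ITGB3BP, whose names fit the rule but which encode proteins that bind integrin tails and not subunits. ITGB3 was not among the single names. ITGA1 and ITGB1BP2 were listed only on rows that join them to a second gene, PELO and NONO, so no level could be assigned to them alone.

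The affected cat came from a colony in which PCG is inherited as a recessive trait with a frameshift in LTBP2, and the normal cat was unrelated and healthy. Both were 2 months old. The dissected piece held the angle, its trabecular meshwork, the ciliary body and neighbouring sclera. There was 1 library per condition, so there is no replicate error, no difference could be tested, and every value describes these 2 cats only.

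Integrins are receptors made of 1 alpha and 1 beta chain, which span the cell membrane and tie the extracellular matrix to the actin cytoskeleton or, in hemidesmosomes, to keratin. Laminins are cross-shaped trimers of an alpha, a beta and a gamma chain that form the first sheet of every basement membrane, and nidogens link that sheet to the collagen IV network. In the anterior eye such membranes underlie the corneal epithelium, the vessels, the ciliary epithelium, the trabecular beams and the lens, and trabecular meshwork cells use integrins to hold and sense their matrix.

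Levels are FPKM, fragment numbers divided by transcript length and by library size, so levels of different genes can be set side by side within a library. The value of 1 fragment on 1 kb of effective transcript length was 0.0141 FPKM in the normal cat and 0.0149 FPKM in the affected cat, recovered from low values at unnamed loci, and the values were scaled to about 70900000 and 67300000 fragments. Log2 ratios are log2 of (affected + 1) over (normal + 1), which understates the difference of genes with low levels. The intervals in brackets cover 95% of counting error for a transcript with 1 kb of effective length, are narrower for a longer transcript, and do not include variation between cats. A gene was called higher or lower when it differed at least 2-fold on this scale, and genes under 1 FPKM in both libraries were left out of the counts. AGRN and FBLN2, which are widely expressed genes, were listed at 0 in both libraries, so a 0 is not read as absence. The table gives 12 of the members a span that another row also has, and the library kit, TruSeq v2, does not mark strand, so reads of such overlapping loci cannot be separated by strand.

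Of the 40 genes, 35 reached 1 FPKM in at least 1 library. Among these, 9 were at least 2-fold lower in the affected cat, namely ITGA2, ITGA4, ITGA5, ITGB4, LAMA1, LAMA4, LAMB3, LAMB4 and LAMC3, and 0 were at least 2-fold higher. Over all 16676 loci past the same minimum, 8.75% were at least 2-fold lower and 8.14% at least 2-fold higher, and over the 12724 named genes among them the shares were 8.46% and 6.63%. The 9 lower genes were 25.7% of the members used. The median log2 ratio was −0.31 for the 35 genes and −0.0047 for all loci. With 0.1 FPKM added in place of 1, the median of the 35 genes was −0.60, beside −0.0056 for all loci. Where the mean of both cats had to reach 5 FPKM, ITGA2, ITGA4, LAMB3 and LAMB4 dropped out and 5 of the 22 members left were lower, beside 6.46% of loci. The members just past the 2-fold limit were LAMB3 at −1.15 and ITGA2 at −1.21. Both counting intervals crossed the limit at the assumed effective length of 1 kb, and whether they would at the true lengths was not computed. Just short of it were ITGA11 at −0.97 and ITGA6 at −0.91. The highest log2 ratios were 0.88 for ITGA7 and 0.88 for LAMB1. In bulk tissue, fewer cells of a type and less RNA per cell cannot be told apart.

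**Figure D1:**
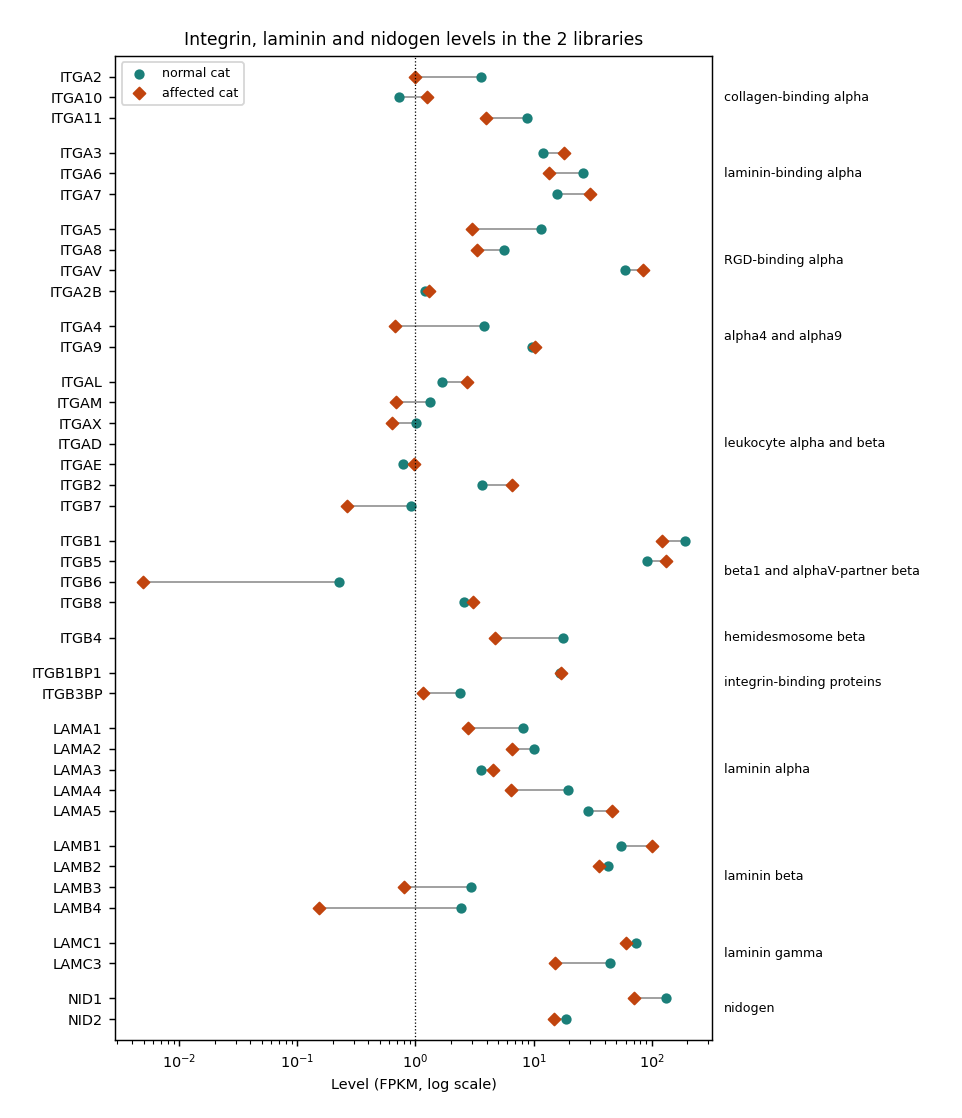
Level of each gene described, in FPKM on a log axis, with the normal cat as circles and the affected cat as diamonds, joined by a line and grouped by role. ITGAD, listed at 0 in both libraries, has no point, the dotted line marks 1 FPKM, and the highest points are ITGB1 at 190.1 FPKM in the normal and ITGB5 at 131.6 FPKM in the affected cat.

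The beta chains ITGB1 and ITGB5 were the most abundant integrin subunits in both libraries, and their order was reversed between the cats. ITGB1, the common partner of the collagen-, laminin- and fibronectin-binding alpha chains, was listed at 190.1 FPKM in the normal cat and 120.9 FPKM in the affected cat, a log2 ratio of −0.65 (−0.69 to −0.61). ITGB5, which pairs with ITGAV to bind vitronectin, was listed at 90.2 and 131.6 FPKM, a log2 ratio of 0.54 (0.49 to 0.59). ITGB1 thus stood at 2.11 times the level of ITGB5 in the normal cat and at 0.919 times in the affected cat. Neither gene passed the 2-fold limit. Of the summed FPKM of the 7 beta chains, ITGB1 held 62.3% in the normal and 45.3% in the affected cat, and ITGB5 held 29.5% and 49.2%. ITGB8, an ITGAV partner known for activating latent TGF-beta, was low and nearly level at 2.58 and 3.07 FPKM.

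ITGB4, whose long cytoplasmic tail joins laminin to keratin in hemidesmosomes, was among the 9 lower members. It was listed at 17.7 FPKM in the normal cat and 4.71 FPKM in the affected cat, a log2 ratio of −1.71 (−1.86 to −1.56), below that of all but 2.72% of loci. The gene lies at chrE1:57316550-57353365 of felCat5, a span it shares in the table with GALK1, which was listed at 33.3 and 19.1 FPKM. ITGB6, an epithelial partner of ITGAV, stood under the minimum at 0.224 FPKM in the normal cat and 0.00490 FPKM in the affected cat. The affected value equals 1 fragment on 3.03 kb of effective length, on which the normal value would be 48.1 fragments. An Ensembl gene without a symbol, listed with the same span as ITGB6, was at 3.57 FPKM in the normal cat and 3.22 FPKM in the affected cat.

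The alpha chains that bind the RGD motif of fibronectin and vitronectin differed in direction. ITGAV, the most abundant alpha chain in both libraries, was listed at 59.9 FPKM in the normal cat and 84.0 FPKM in the affected cat, a log2 ratio of 0.48 (0.42 to 0.54). ITGA5, the alpha chain of the classical fibronectin receptor, was listed at 11.5 and 2.99 FPKM, a log2 ratio of −1.65 (−1.82 to −1.47). The ITGA5 locus is chrB4:83122876-83145675. The level of ITGAV was 5.20 times that of ITGA5 in the normal and 28.0 times in the affected cat. ITGA8, the nephronectin receptor chain of smooth muscle and mesenchyme, was listed at 5.59 and 3.29 FPKM, within 2-fold. ITGA2B, the platelet chain, was close to the minimum in both cats at 1.21 and 1.29 FPKM.

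Of the laminin-binding alpha chains, none passed the 2-fold limit. ITGA6, the partner of ITGB4 in hemidesmosomes and of ITGB1 elsewhere, was listed at 26.4 FPKM in the normal cat and 13.6 FPKM in the affected cat, a log2 ratio of −0.91 (−1.02 to −0.80). A second row with the name ITGA6 and the same span was listed at 21.3 and 14.6 FPKM, a log2 ratio of −0.51, so the gene was lower in the affected cat on both rows. ITGA7, a chain best known from muscle, was listed at 15.7 and 29.9 FPKM, a log2 ratio of 0.88 (0.78 to 0.99). ITGA3 was listed at 12.1 and 18.2 FPKM, a log2 ratio of 0.55 (0.43 to 0.67). With both rows of ITGA6 added together, its level was 47.7 FPKM and 28.2 FPKM, and ITGA7 stood at 0.331 times that level in the normal cat and at 1.06 times in the affected one.

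Of the collagen-binding chains, ITGA2, found on epithelia and platelets, was listed at 3.58 FPKM in the normal cat and 0.982 FPKM in the affected cat, a log2 ratio of −1.21 (−1.43 to −0.99). Its locus is chrA1:199962580-200071060. ITGA11, a fibroblast receptor for fibrillar collagen, was listed at 8.71 and 3.95 FPKM, a 2.21-fold lower level that gave a log2 ratio of −0.97 after addition of 1 FPKM. ITGA10, the cartilage-type chain, was listed at 0.724 and 1.24 FPKM. The row joining ITGA1 and PELO was listed at 13.6 and 13.7 FPKM and is not a level of ITGA1 alone.

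ITGA4 and ITGA9 bind VCAM1 and osteopontin among other ligands, and both also serve in leukocytes or lymphatic vessels. ITGA4, at chrC1:169233542-169414452, was listed at 3.77 FPKM in the normal cat and 0.666 FPKM in the affected cat, a log2 ratio of −1.52 (−1.74 to −1.30). CERKL, listed with the same span, was at 1.52 and 2.40 FPKM and differed in the other direction. ITGA9 was nearly level at 9.75 and 10.3 FPKM, a log2 ratio of 0.066 (−0.073 to 0.20).

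The chains restricted to leukocytes were listed at low levels. ITGB2, the common beta chain of myeloid and lymphoid integrins, was listed at 3.65 FPKM in the normal cat and 6.58 FPKM in the affected cat, a log2 ratio of 0.70 (0.52 to 0.89). Its alpha partners did not share 1 direction. ITGAL was listed at 1.69 and 2.72 FPKM, while a second ITGAL row was at 1.42 and 1.20 FPKM. ITGAM was listed at 1.32 and 0.684 FPKM and ITGAX at 1.01 and 0.638 FPKM. ITGAE and ITGB7, which pair on intraepithelial lymphocytes, stayed under the minimum in both cats, and ITGAD, on an unplaced scaffold, was listed at 0 in both. Of 11 macrophage and leukocyte markers set beside these values, 4 (CD163, C1QA, C1QB and C1QC) were at least 2-fold higher and 0 lower. Over all loci the shares were 8.14% and 8.75%. The summed level of the list was 186.0 FPKM in the normal cat and 436.9 FPKM in the affected cat. Most of that rise came from C1QA (39.7 and 149.8 FPKM), C1QB (32.6 and 111.4 FPKM) and C1QC (17.8 and 63.2 FPKM). Log2 ratios were above 0 for 8 genes and below 0 for 3, PTPRC, CSF1R (12.9 and 11.7 FPKM) and AIF1 (10.9 and 7.39 FPKM). In that list PTPRC, the pan-leukocyte marker, was at 2.13 and 1.23 FPKM, CD163 at 3.67 and 13.0 FPKM, CD3D stayed under 1 FPKM in both, and LYZ was listed at 0 in both. Their part in the integrin values was not tested.

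**Figure D2:**
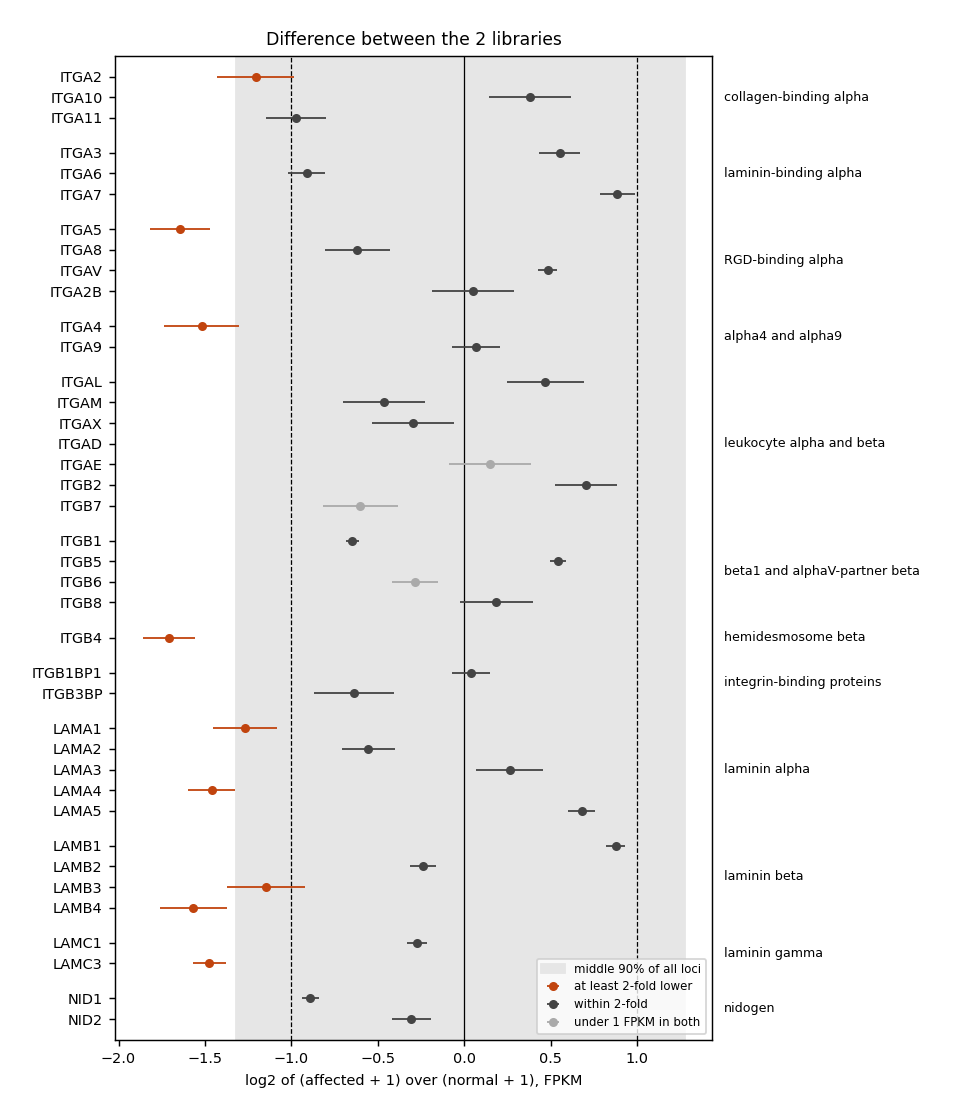
Log2 ratio of each gene described, affected over normal, with bars for the 95% counting interval on 1 kb of effective length, dashed lines at 2-fold and a grey band over the middle 90% of all loci (−1.32 to 1.27). The 9 genes past the lower line are coloured, none lies past the upper line, and the genes under 1 FPKM in both cats are pale.

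Among the laminins, 5 of the 11 chains used were at least 2-fold lower in the affected cat and none was at least 2-fold higher, beside 8.75% and 8.14% of all loci. The main chains of the general basement membrane trimer, LAMA5, LAMB1 and LAMC1, were not among the lower ones. LAMA5 was listed at 28.6 FPKM in the normal cat and 46.3 FPKM in the affected cat, a log2 ratio of 0.68 (0.60 to 0.76). ADRM1, listed with the same span as LAMA5, was at 36.4 and 48.2 FPKM. LAMB1 was listed at 54.6 and 100.9 FPKM, a log2 ratio of 0.88 (0.82 to 0.93). LAMC1, the gamma chain of most laminins, was listed at 73.9 and 60.9 FPKM, a log2 ratio of −0.27 (−0.33 to −0.22). Of the 3, LAMA5 and LAMB1 were thus higher and LAMC1 lower in the affected cat, each within 2-fold.

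Of the other alpha chains, LAMA4 and LAMA1 were at least 2-fold lower in the affected cat, and LAMA2 and LAMA3 lay within 2-fold. LAMA4, the chain of vessel and peripheral nerve basement membranes, at chrB2:103255559-103401889, was listed at 19.5 and 6.44 FPKM, a log2 ratio of −1.46 (−1.60 to −1.32). LAMA1, an early chain kept in the lens capsule and the inner limiting membrane, at chrD3:38497558-38636278, was listed at 8.12 and 2.79 FPKM, a log2 ratio of −1.27 (−1.45 to −1.08). LAMA2, the chain of muscle and Schwann cell membranes, was listed at 10.1 and 6.58 FPKM, a log2 ratio of −0.55 (−0.71 to −0.40). The summed level of the 5 alpha chains was nearly the same in the cats, 69.9 and 66.6 FPKM, but LAMA5 held 40.8% of it in the normal and 69.5% in the affected cat. The share of LAMA4 was 27.9% and 9.67%, and that of LAMA1 was 11.6% and 4.19%.

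LAMC3, a gamma chain described in nerve, skin and retina, was the second gamma chain in both libraries. It was listed at 44.0 FPKM in the normal cat and 15.2 FPKM in the affected cat, a log2 ratio of −1.48 (−1.57 to −1.38), and lies at chrD4:90926164-90983126. Its share of the gamma chain FPKM was 37.2% in the normal cat and 19.9% in the affected one. The summed gamma chains were 118.3 and 76.2 FPKM, a 1.55-fold lower level in the affected cat, whereas the summed beta chains were 102.6 and 137.9 FPKM. LAMB2, a beta chain of vessel, kidney and neuromuscular membranes, was listed at 42.6 and 36.0 FPKM, a log2 ratio of −0.24 (−0.31 to −0.16). LAMB1 therefore stood at 1.28 times LAMB2 in the normal and 2.80 times in the affected cat.

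LAMA3 and LAMB3 are chains of the epithelial laminin that anchors hemidesmosomes, and they did not share 1 direction. LAMB3, at chrF1:32931373-32970539, was listed at 2.97 FPKM in the normal cat and 0.796 FPKM in the affected cat, a log2 ratio of −1.15 (−1.37 to −0.92). LAMA3 was listed at 3.59 and 4.50 FPKM, a log2 ratio of 0.26 (0.07 to 0.45). Its value is a sum over the locus, so isoforms were not told apart.

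LAMB4, a little-studied beta chain, was listed at 2.41 FPKM in the normal cat and 0.152 FPKM in the affected cat, a log2 ratio of −1.57 (−1.76 to −1.37). It shares the span chrA2:77284445-77513606 with LAMB1 and DLD, and the name LAMB4 stands on 3 further rows there. These rows were listed at 0.444 and 0.585, 0.673 and 0.0885, and 0.266 and 0 FPKM, so 1 of them was higher in the affected cat. A second LAMB1 row in that span was at 0.189 and 0.611 FPKM. How reads were divided between these neighbours was not tested.

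Both nidogens were lower in the affected cat, within 2-fold. NID1 was listed at 132.8 FPKM in the normal cat and 71.2 FPKM in the affected cat, a log2 ratio of −0.89 (−0.94 to −0.84), and was the second most abundant member in the normal cat. NID2 was listed at 18.8 and 15.0 FPKM, a log2 ratio of −0.31 (−0.42 to −0.20). C14orf166, listed with the same span as NID2, was at 117.7 and 117.6 FPKM. The summed nidogens were 1.76-fold lower in the affected cat. Of the integrin-binding proteins, ITGB1BP1 was level at 16.6 and 17.0 FPKM and ITGB3BP was listed at 2.37 and 1.16 FPKM, a log2 ratio of −0.64 (−0.87 to −0.41).

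**Figure D3:**
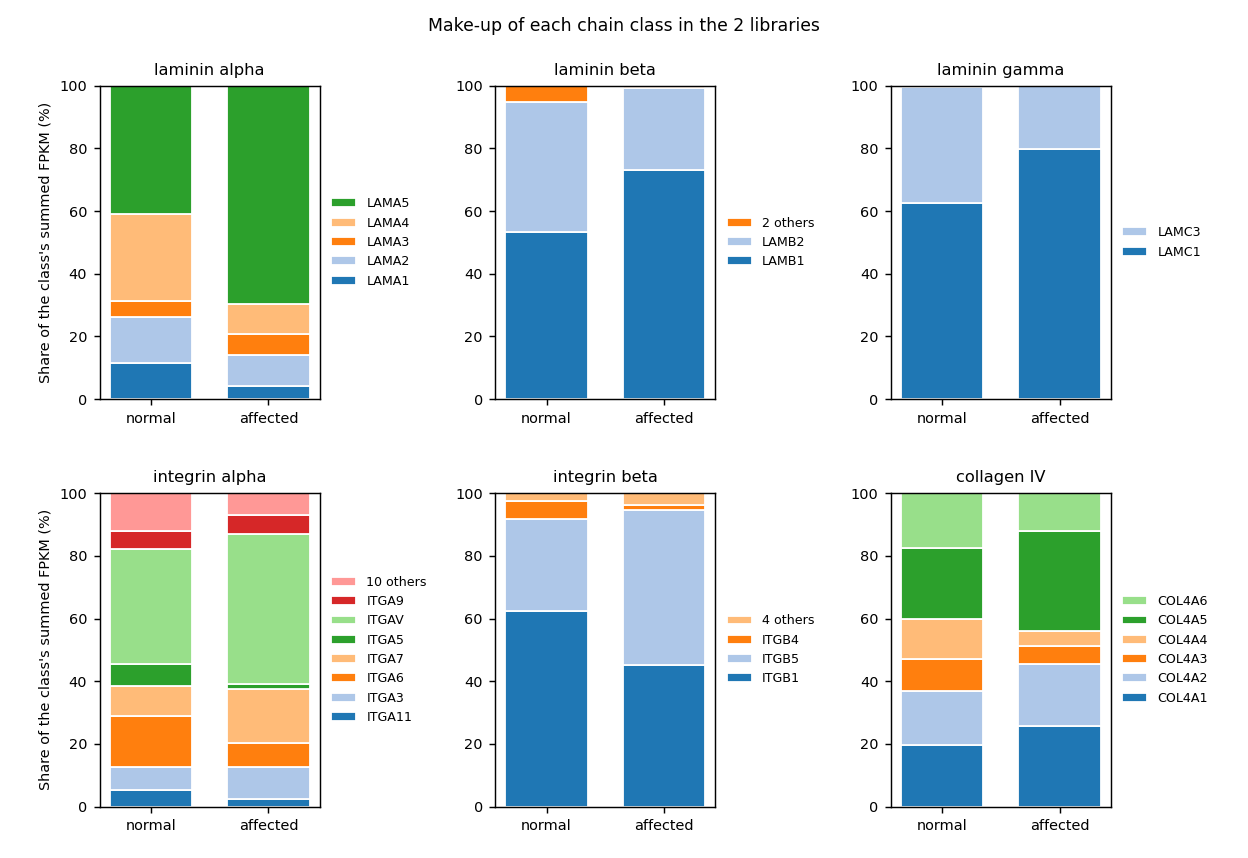
Share of the summed FPKM of each chain class held by each chain, in percent, for the normal and the affected cat; chains under 5% in both are pooled as others, and a pooled share under 0.5% is not drawn. LAMA5 takes 69.5% of the laminin alpha FPKM in the affected cat against 40.8% in the normal, and ITGB5 takes 49.2% of the integrin beta FPKM against 29.5%. Only the ITGA6 row with the higher mean is drawn, and its second row would add to its share.

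The partner proteins of these genes were followed in 5 lists, whose medians can be set beside the −0.0047 of all loci and whose counts beside the 8.75% of all loci that were at least 2-fold lower and the 8.14% that were higher. Of 15 basement membrane partners past the minimum, 5 were at least 2-fold lower, 2 were higher and the median log2 ratio was −0.88. All 6 collagen IV chains had lower levels in the affected cat, and 3 passed the 2-fold limit. COL4A1, a chain of every basement membrane, was at 94.9 FPKM in the normal cat and 55.2 FPKM in the affected cat, and COL4A2 at 84.0 and 43.3 FPKM. The chains found in specialised membranes were COL4A3, at 48.1 and 12.1 FPKM, COL4A4, at 61.8 and 10.5 FPKM, and COL4A6, at 85.4 and 25.8 FPKM. COL4A5 was at 109.7 and 69.1 FPKM. The collagen IV sum was 484.0 FPKM in the normal cat and 216.0 FPKM in the affected cat. HSPG2, the proteoglycan perlecan, was at 27.2 and 14.3 FPKM. COL15A1, a collagen of vessel membranes, had the lowest log2 ratio of the list, −3.04, while COL18A1, the source of endostatin, at 1.42, and FBLN1 (fibulin), at 1.17, were the 2 higher genes, followed by FRAS1 at 0.12. NTN4, a netrin that binds laminin, at −1.30, was the other lower gene.

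Of 10 other laminin receptors, 1 was at least 2-fold higher, 2 were lower and the median log2 ratio was 0.23. The syndecan SDC4 was at 62.3 FPKM in the normal cat and 226.3 FPKM in the affected cat, and SDC1, the epithelial syndecan, at 38.3 and 13.1 FPKM. DAG1, dystroglycan, differed little, with 37.4 and 45.1 FPKM. The sarcoglycan SGCE had a log2 ratio of −1.52, whereas SGCA had 0.81, and BCAM, a receptor for LAMA5, had 0.42.

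Of 22 integrin ligands, 13 were at least 2-fold lower, 2 were higher and the median log2 ratio was −1.18. One of the higher genes, COL1A2, rests on a listed 0 in the normal cat, and without it 1 of 21 was higher. FN1, fibronectin, was at 123.7 FPKM in the normal cat and 15.7 FPKM in the affected cat, a log2 ratio of −2.90, beside the −1.65 of its receptor chain ITGA5. The lowest log2 ratios were those of COL1A1 at −5.86, COL3A1 at −4.90 and POSTN at −4.27. FBN1, fibrillin, was at 55.8 and 242.1 FPKM, and ICAM1 had a log2 ratio of 0.53. COL1A2 was listed at 0 in the normal cat and 447.2 FPKM in the affected cat, the opposite of COL1A1, its partner in collagen I, at 2476 and 41.8 FPKM, and no fold is given for it.

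Focal adhesion proteins couple integrins to actin inside the cell. Of 24 such genes, 22 lay within 2-fold, 2 were lower, 0 were higher and the median was −0.27. The 2 lower genes were 8.33% of the list, near the 8.75% of all loci. TLN1, the talin that activates integrins, was at 25.6 FPKM in the normal cat and 31.1 FPKM in the affected cat. The 2 lower genes were PARVB at −1.30 and FERMT1, the epithelial kindlin, at −1.24. ILK, the pseudokinase that binds beta tails, had −0.66, and ACTN4 and TNS1 had the highest values, 0.88 and 0.83.

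Of 4 hemidesmosome partners, 3 were lower. COL17A1, the transmembrane collagen that binds ITGB4, was at 27.1 FPKM in the normal cat and 1.49 FPKM in the affected cat. The keratins KRT5 and KRT14 had log2 ratios of −3.99 and −1.91, and the tetraspanin CD151 had 0.19.

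**Figure D4:**
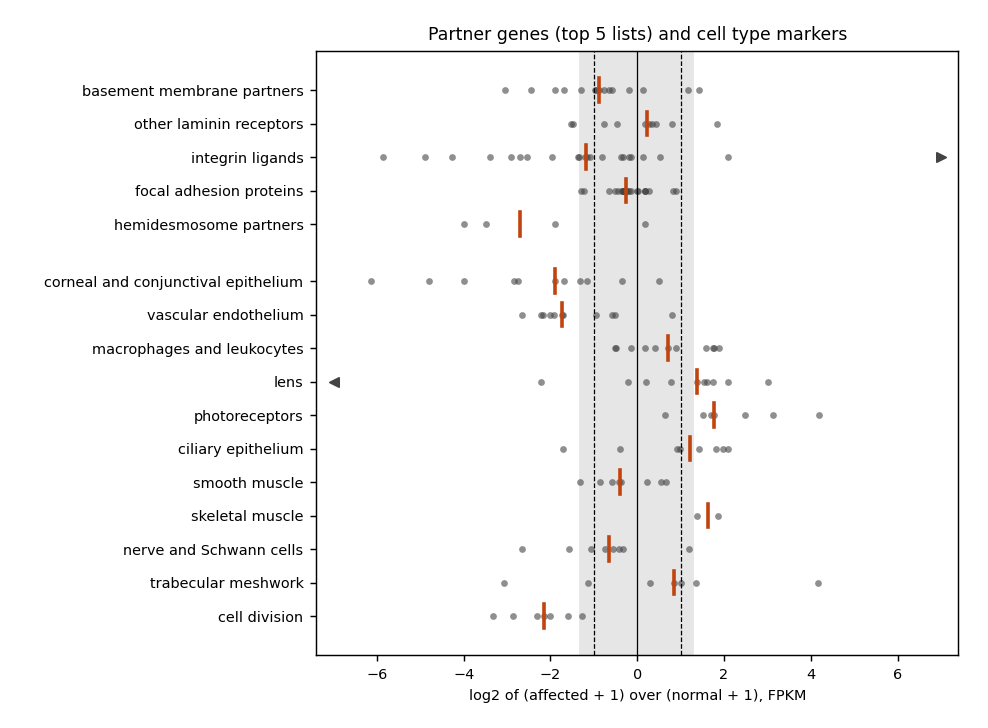
Log2 ratio of each gene past 1 FPKM in the 5 partner lists (top) and the cell type marker lists (bottom), with each list's median as a vertical bar, dashed lines at 2-fold and the middle 90% of all loci in grey. Arrowheads mark the values beyond the axis, COL1A2 among integrin ligands and CRYAA in the lens, each listed at 0 in 1 library; the medians run from −2.70 for hemidesmosome partners to 1.78 for photoreceptors.

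Markers of several cell types in the dissected piece also differed between the libraries. The counts in these lists can be set beside the 8.75% of all loci that were at least 2-fold lower and the 8.14% that were higher. Of 11 corneal and conjunctival epithelium genes, 9 were at least 2-fold lower and 0 higher, with summed levels of 759.0 FPKM in the normal cat and 247.6 FPKM in the affected cat. PAX6, which is also expressed in ciliary body, iris and lens, made up most of the latter sum with 147.8 and 211.0 FPKM, and without it the sums were 611.3 and 36.6 FPKM. KRT5 was at 106.2 and 5.76 FPKM, KRT14 at 5.77 and 0.806 FPKM, and KRT3 at 76.5 and 1.78 FPKM. The part of the epithelium in the integrin and laminin values was not tested. Of 11 vascular endothelium genes, 7 were lower and 0 higher, with sums of 228.0 and 80.5 FPKM, CDH5 at 20.5 and 5.61 FPKM, VWF at 9.92 and 6.26 FPKM and FLT1, in the other direction, at 9.35 and 16.9 FPKM. The part of the vessels was likewise not tested.

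Of 8 nerve and Schwann cell genes, 3 were lower and 1 (MBP) higher, with sums of 237.4 and 184.8 FPKM, beside LAMA2 and LAMA4. PMP22 was at 88.3 and 59.5 FPKM. Of 7 cell division genes, all were lower, with sums of 85.6 and 11.3 FPKM, MKI67 at 4.31 and 0.325 FPKM, TOP2A at 16.8 and 1.42 FPKM and CDK1 at 25.9 and 1.69 FPKM. Of 8 smooth muscle genes, 1 was lower (12.5%, near the 8.75% of all loci) and 0 higher, with sums of 1434 and 1228 FPKM. ACTA2 was at 600.0 and 699.4 FPKM, MYH11 at 88.2 and 140.8 FPKM, and TAGLN, the lower one, at 501.0 and 198.6 FPKM. The part of these cell types in the values of ITGA7, ITGA8, ITGB1 and the laminins was not tested.

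Other lists were higher in the affected cat by their median. Of 8 ciliary epithelium genes, 4 were higher and 1 (CA2) lower, with sums of 2119 and 6038 FPKM. OPTC was at 351.0 and 1235 FPKM, COL9A1 at 403.5 and 1718 FPKM, COL9A2 at 355.6 and 1391 FPKM, and COL9A3 at 519.6 and 1402 FPKM. These 4 genes held most of both sums. In the whole list, 6 log2 ratios were above 0 and 2 below, CA2 at 370.2 and 111.9 FPKM and SLC4A4 at 43.0 and 32.6 FPKM. Of 7 photoreceptor genes, 6 were higher, with sums of 408.7 and 1644 FPKM, SAG at 48.2 and 426.8 FPKM and PRPH2 at 47.8 and 270.9 FPKM. Of 11 lens genes, 6 were higher and 2 lower, with sums of 52577 and 39958 FPKM. CRYAA had 22978 FPKM in the normal cat and was listed at 0 in the affected one, which is 1 of the 2 lower calls, and without it the sums turned to 29599 and 39958 FPKM. CRYAB and CRYBA1 were at 10017 and 8592 and at 12676 and 14523 FPKM. Of 7 trabecular meshwork genes, 3 (MYOC, ANGPTL7 and CHI3L1) were higher and 2 (MGP and FABP4) lower, with sums of 841.3 and 781.3 FPKM, MYOC at 149.7 and 301.5 FPKM, CHI3L1 at 0.854 and 32.0 FPKM and MGP at 454.9 and 52.9 FPKM. MYOC, which is strongly expressed in trabecular meshwork, was thus present in both. Of 4 skeletal muscle genes found, 2 passed the minimum and both were higher, with sums of 9.50 and 37.4 FPKM over the 4 genes, CKM at 8.40 and 33.0 FPKM and TNNC2 at 0.505 and 2.93 FPKM, while MYLPF and TNNT3 stayed under 1 FPKM in both. The part of these tissues in the integrin and laminin values was not tested.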

How the data were processed

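RNA of 1 normal and 1 affected cat was sequenced once each. Reads were mapped by the authors with TopHat 2.0.9, guided by gene predictions of Ensembl, on the felCat5 build, and Cufflinks 2.1.1 then gave 1 FPKM value per locus and library. The deposited FPKM were used without rescaling, since the scaling between the libraries is not given in the sources used here. FPKM are not counts and each condition has 1 library, so no count model, test or p-value was used. Starts are printed 1-based, because 22 rows of the table start at 0.

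Log2 ratios used a pseudocount of 1 FPKM, with at least 1 FPKM required in 1 library. The scaled fragment number was fitted so that low values at unnamed loci became whole fragments, using the locus length less 174 bases in the normal and 175 bases in the affected library. Within 0.03 of a whole fragment lay 96.9% of 1457 values in the normal and 96.2% of 1135 values in the affected library. By chance it would be 6% for a scale fixed in advance. Scale and shortening were chosen to give the highest share, and the chance share of such a best fit was not computed. Call and fragment steps were tested on simulated data.

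The members and all gene lists were chosen with earlier results of these data known. The text names the members and, of each partner list, the 3 highest and 3 lowest genes by log2 ratio together with the collagen IV chains, HSPG2, DAG1, FN1, TLN1 and COL17A1; of each marker list it names those of the first 3 genes that were found and those under 1 FPKM in both cats. NTN4, C1QA to C1QC, MBP, COL9A3, CA2, ANGPTL7, FABP4, CKM and TNNC2 were named after their values were seen, because they make up small counts. PAX6, FLT1, SLC4A4, CSF1R and AIF1 were also named after their values were seen, because they differ from the rest of their lists. The values without COL1A2, CRYAA or PAX6 were likewise chosen after seeing the data. A few genes that this rule would name are not reported here. KRT5, KRT14, CDH1 and CD151 each stand in 2 lists. Alternatives were another pseudocount, 2 rescalings, other minimums, a 4-fold limit, removal of loci at 0 in 1 library, and other choices of rows. Scripts ran under Python 3.11.15 with pandas 2.3.3, numpy 2.4.6 and, for plots, matplotlib 3.10.9.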

Additional observations from a re-analysis of the deposited data

How the results depend on the processing

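None of the values has a replicate check. No paired analysis was possible because there is only 1 library of each kind. The count of members at least 2-fold higher was 0 under all alternatives. The count of 9 lower members became 10 when 0.1 FPKM was added in place of 1, and also when each library was scaled to sum to 1000000, ITGA11 being added each time, beside 13.0% and 10.6% of all loci. It was 5 with a mean of at least 5 FPKM, which leaves 22 members and drops ITGA2, ITGA4, LAMB3 and LAMB4, beside 6.46% of loci. With a 4-fold limit and 1 FPKM added it was 0, beside 1.79% of loci. As plain ratios of the listed levels, LAMB4 was 15.9-fold and ITGA4 5.66-fold lower in the affected cat. Under the remaining alternatives the count of lower members stayed at 9. The median log2 ratio of the members was −0.60 with a pseudocount of 0.1, since a smaller pseudocount widens the ratios of low genes, and lay between −0.40 and −0.29 under the others. Rows of a repeated name were also summed, an alternative chosen after the data were seen. ITGB1BP1, near 0, was the only member used to change sign, when the libraries were scaled to sum to 1000000. On the log2 scale the summed FPKM of the lens genes, affected over normal, was −0.40, and 0.43 without CRYAA, an alternative also chosen after seeing the data.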
